A study of Mus musculus with 8 samples.

Results

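Fgf21, Gdf15 and Stc2 encode secreted hormones that cells make under stress, and Klb, Fgfr1 and Fgfr4 encode receptor parts through which the first of them or its close relative FGF15 acts. These 6 genes were taken by name. Features whose only listed gene symbol was a member were kept, and 5 of the 6 genes had 1 such feature each among the 18820 genes tested. Gdf15 was not analysed here. The features came from 8 whole-transcript arrays of mouse pancreas, 4 labelled wild type and 4 labelled inducible Sel1L knockout, of the C57BL/6J background. Sel1L is the adaptor of the Hrd1 ubiquitin ligase, which removes misfolded proteins from the endoplasmic reticulum (ER), and the comparison asks how its loss alters expression in this tissue. Both groups carried Sel1l with exon 6 floxed on both alleles, and both received tamoxifen at 5 mg/ml, in a volume of 5 μl for each gram of weight, daily for 3 days at an age of 8 to 20 weeks. The knockout group also carried a Cre recombinase fused to the estrogen receptor under an actin promoter, which its littermate controls lacked, so loss of Sel1L and Cre activity cannot be told apart. The actin promoter is active in many tissues, so loss elsewhere and loss in pancreas cannot be told apart either. Whether each array stands for its own animal is not said in the labels, so the p-values cover the spread of these 8 samples and no more; that spread may be technical.

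As background, FGF21 is a hormone-like fibroblast growth factor that binds a receptor made of the co-receptor beta-klotho (Klb) and an FGF receptor tyrosine kinase, chiefly FGFR1. Beta-klotho with FGFR4 serves FGF15, the bile acid signal of the ileum. The exocrine pancreas is itself a source of FGF21, which acts on acinar cells to promote secretion. GDF15 signals through GFRAL and RET in the hindbrain, and STC2 is a secreted glycoprotein that inhibits the protease PAPP-A and thereby limits release of insulin-like growth factors from their binding proteins. Transcription of all 3 hormones is known to be induced through ATF4, the transcription factor of the integrated stress response, and that of Fgf21 also through PPAR alpha.

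The arrays carried the signal of exocrine pancreas: the mean level of the 8 measured acinar markers was 12.93 to 13.07 in wild type and 12.58 to 12.70 in knockout arrays on the log2 scale, with Ctrb1 at 14.08 and 13.94. Sel1l fell by 0.76 on the log2 scale (SE 0.0788, limma adjusted p = 0.000196), from 12.38 ± 0.0105 to 11.62 ± 0.114 (SD, n = 4 each), on a feature whose probes are not limited to the floxed exon. Correlations between arrays across genes were 0.979 to 0.992 within wild type and 0.992 to 0.995 within knockout. Wild type replicate 2 stood apart: its mean over the macrophage markers was 6.26 (7.97 to 8.62 in the remaining wild type arrays) and over the stellate cell and fibroblast markers 6.90 (7.90 to 8.33). Values without that array are given below for some results, not for all that moved.

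Of the 5 measured members, 2 rose (Stc2 and Fgfr4), 1 fell (Klb), and Fgf21 and Fgfr1 did not pass the threshold (limma, Benjamini-Hochberg adjusted p under 0.05 over all genes). Over all genes 28.7% passed, 16.1% higher and 12.6% lower in knockout, and the groups did not overlap for 32.2% of genes (3 of the 5 members). With 5 genes these shares are not a result about the members. The shares of 16.1% higher and 12.6% lower are also the background of each list count below. After quantile normalization the higher genes were 42.9% of the calls and after centring each array on its median 36.3%, against 56.0% on the deposited values. The direction of each called member was the same under these scalings. The hormones are described first, then the receptor parts, then the genes of their pathways.

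Stc2 rose. Its log2 level was 7.53, 7.54, 7.68 and 7.93 in wild type replicates 1 to 4 and 8.93, 9.28, 9.32 and 9.39 in knockout replicates 1 to 4. All knockout values lay above all wild type values, with about 1 log2 unit between the groups at their closest. The mean went from 7.67 ± 0.187 to 9.23 ± 0.208 (SD, n = 4 each), a difference of 1.56 (SE 0.128, 95% interval 1.28 to 1.85, limma adjusted p = 6.03e-05) or 2.95-fold. The exact two-sided permutation p was 0.0286, the smallest that 4 against 4 arrays can give. Only 88 of the 18820 genes (0.468%) had a larger rise.

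For Fgf21 no rise was detected. Its log2 level was 7.28, 8.39, 7.89 and 7.50 in wild type and 6.80, 7.20, 7.74 and 7.54 in knockout replicates 1 to 4. The groups overlapped: knockout replicates 3 and 4 lay within the wild type range, and knockout replicates 1 and 2 below it. The mean was 7.77 ± 0.488 in wild type and 7.32 ± 0.409 in knockout (SD, n = 4 each). The difference was -0.45 (SE 0.259, limma adjusted p = 0.217; exact two-sided permutation p = 0.229), with a 95% interval of -1.03 to 0.13. A rise of more than 1.10-fold and a fall to less than 0.49 of the wild type level therefore lay outside the interval. Without wild type replicate 2, which held the highest Fgf21 level, the difference was -0.24 (adjusted p = 0.446), and without knockout replicate 1, which held the lowest, -0.27 (adjusted p = 0.444). The part of the low macrophage and fibroblast marker levels of wild type replicate 2 in its Fgf21 level was not tested.

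Taken within each array, the level of Stc2 minus that of Fgf21 was 2.01 log2 units higher in knockout than in wild type, ranging from -0.857 to 0.434 in wild type arrays and from 1.59 to 2.12 in knockout arrays. These ranges did not overlap. A difference within an array does not move with the scaling of that array by a constant.

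The 250 bases before the start of each gene are shown for both hormones, because the ATF4 response of Fgf21 is known to run through elements close to its start. The sequences are RefSeq's (GRCm38.p6), read along the gene's strand, and capitals mark TGATGNAA, the core of the composite element bound by ATF4 with C/EBP proteins, searched on both strands.
Fgf21 (chr7:45615491-45615740, minus strand): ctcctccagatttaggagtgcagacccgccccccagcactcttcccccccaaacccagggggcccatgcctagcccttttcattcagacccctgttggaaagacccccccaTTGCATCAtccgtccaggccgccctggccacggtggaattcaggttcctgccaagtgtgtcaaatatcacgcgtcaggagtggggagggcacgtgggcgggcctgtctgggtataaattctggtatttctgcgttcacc
Stc2 (chr11:31370062-31370311, minus strand): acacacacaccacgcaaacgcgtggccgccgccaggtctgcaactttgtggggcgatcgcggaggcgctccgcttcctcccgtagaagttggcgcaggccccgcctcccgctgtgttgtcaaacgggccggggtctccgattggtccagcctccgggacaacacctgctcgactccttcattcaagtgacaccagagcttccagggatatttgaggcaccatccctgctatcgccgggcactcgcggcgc
The Fgf21 window held 1 match, TTGCATCA on the opposite strand, 139 to 132 bases before the start. The Stc2 window, like those of Klb and Fgfr4, held none, which says only that these letters are not in this window. Of 32851 promoter windows of this length 3.45% held a match. The ER stress response element (in 0.113% of windows), an XBP1 and ATF6 type element (TGACGTGG, 0.563%) and the PPAR response element (0.0335%), none of which overlaps a TGATGNAA match here, were found in none of the 4 windows. Fgfr1 was not matched. The match in the Fgf21 window is a description of the sequence, and its part in the level of either hormone gene was not tested.

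**Figure D1:**
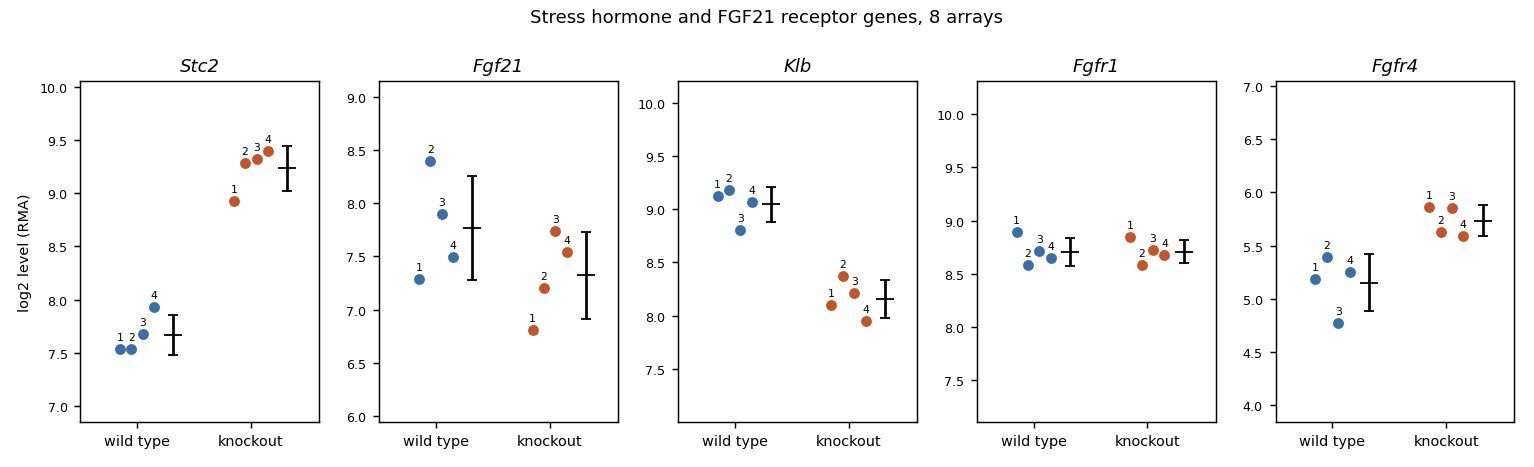
Log2 level (RMA, vertical axis, 3.2 units tall in every panel) of the 5 measured members on each array, with the replicate number beside each point and the mean with its SD (n = 4) to the right of each group. Stc2 and Fgfr4 lie higher and Klb lower in all knockout arrays, while the groups overlap for Fgf21 and Fgfr1.

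Among the receptor parts, Klb, the co-receptor that gives FGF21 and FGF15 their binding, fell. Its log2 level was 9.13, 9.18, 8.81 and 9.07 in wild type and 8.10, 8.37, 8.21 and 7.95 in knockout replicates 1 to 4. All knockout arrays lay below all wild type arrays. The mean went from 9.05 ± 0.167 to 8.16 ± 0.177 (SD, n = 4 each), a difference of -0.89 (SE 0.116, 95% interval -1.15 to -0.63, limma adjusted p = 0.000649), which is a 1.85-fold lower level. The exact two-sided permutation p was 0.0286. A larger fall was found for 215 genes (1.14%). In whole tissue, fewer cells of a type and less RNA per cell cannot be told apart. Beside it, 4 of 8 acinar markers fell and 0 rose, with a median difference of -0.25, and the ranges of their mean level, given above, did not overlap between groups. The brightest, Ctrb1, was at 14.08 in wild type, close to the arrays' highest values (14.29 to 14.37), so the sizes of such bright markers are rough. Of the less bright, named after their values were seen, Cuzd1 fell by 1.02 from 12.66 and Ptf1a differed by -0.14 (adjusted p = 0.42) from 9.02. Klb is also a gene of hepatocytes and adipocytes: 1 of 9 hepatocyte markers fell (Alb, -0.77, adjusted p = 0.0237) and 0 rose, with list means of 4.33 to 4.80 in wild type and 4.24 to 4.44 in knockout, and 1 of 9 adipocyte markers fell and 1 rose, with list means of 4.62 to 4.82 and 4.56 to 4.84. Ttr had the highest level and the largest spread of the hepatocyte markers, so it weighs on their list means. It was at 9.50 ± 0.644 in wild type and 9.22 ± 0.391 in knockout (SD, n = 4 each). The next highest, Alb, was at 6.15 and 5.38. Whether the Ttr signal came from hepatocytes was not tested, so the list means need not reflect hepatocyte content. Alb missed the threshold when wild type replicate 2 was omitted (-0.68, adjusted p = 0.0514), without knockout replicate 2 (0.0654) or 4 (0.0662), and with the replicate number as a block (0.0604). Of the adipocyte markers, named after their values were seen, Plin4 fell by 1.15 (adjusted p = 0.000796), Lipe rose by 0.57 (adjusted p = 0.0021) and Adipoq was at 3.16 in wild type and 3.25 in knockout. The part of these cell types in the fall of Klb was not tested.

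Fgfr1, the kinase that FGF21 mainly uses with beta-klotho, did not differ beyond its spread. Its log2 level was 8.89, 8.58, 8.72 and 8.65 in wild type and 8.85, 8.58, 8.72 and 8.68 in knockout replicates 1 to 4. Both groups covered nearly the same range. The difference was -0.00052 (SE 0.0936, limma adjusted p = 0.997; exact two-sided permutation p = 1), and its 95% interval of -0.21 to 0.21 allows a level of 0.86 to 1.16 times that of wild type. Within arrays, Klb fell by 0.888 relative to Fgfr1. That within-array difference was 0.0893 to 0.597 in wild type and -0.746 to -0.213 in knockout arrays, so the groups did not overlap.

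Fgfr4, the kinase of the FGF15 receptor, rose. Its log2 level was 5.19, 5.39, 4.77 and 5.25 in wild type and 5.86, 5.63, 5.86 and 5.59 in knockout replicates 1 to 4. The groups did not overlap, but the highest wild type array (5.39) and the lowest knockout array (5.59) lay close together. The mean went from 5.15 ± 0.266 to 5.74 ± 0.144 (SD, n = 4 each), a difference of 0.58 (SE 0.136, 95% interval 0.28 to 0.89, limma adjusted p = 0.0116; exact two-sided permutation p = 0.0286) or 1.50-fold. These levels lay near the arrays' medians (4.94 to 5.05), so the fold is rough. A larger rise was found for 1152 genes (6.12%). Relative to Fgfr4 on the same array, Klb fell by 1.47.

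**Figure D2:**
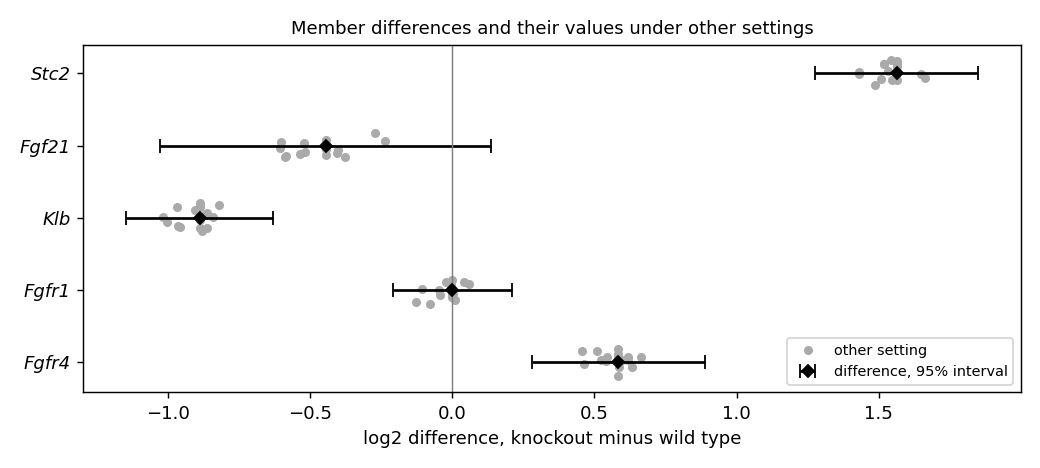
Log2 difference, knockout minus wild type (horizontal axis), of each measured member with its 95% interval (black, n = 4 each), and the same difference under each other setting tried (grey). Stc2 stays between 1.43 and 1.66 and Klb between -1.02 and -0.82, while Fgf21 stays below 0 with an interval that includes 0.

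Of 5 other measured FGF receptor, klotho and adaptor genes 2 rose and 1 fell. Beside 16.1% higher and 12.6% lower over all genes, counts from 5 genes are not a result about the list. Fgfr2, an epithelial FGF receptor, rose by 0.77 (SE 0.149, adjusted p = 0.00516), from 6.07 ± 0.170 to 6.84 ± 0.295 (SD, n = 4 each). Fgfr3 rose by 0.56 (SE 0.115, adjusted p = 0.00678), from 6.60 to 7.16. For both, all knockout arrays lay above all wild type arrays. Fgfrl1, a receptor-like protein without a kinase domain, fell by 0.38 (SE 0.0868, adjusted p = 0.0107). The difference for Kl, the klotho co-receptor of FGF23, was -0.082 (adjusted p = 0.733) at a level of 3.31 in wild type, below the arrays' medians; its direction turned after quantile normalization (0.020), after cyclic loess (0.053) and without wild type replicate 2 (0.093). Beside these rises, endothelial markers were higher for 5 of 10 genes (3 without wild type replicate 2) and lower for 0, with list means of 6.88 to 7.07 in wild type and 7.14 to 7.39 in knockout, and duct markers were higher for 1 of 6 and lower for 1, with list means of 7.55 to 7.86 and 7.44 to 7.52 but a median difference of 0.27. The gene that fell was Muc1 (-2.39) and the gene that rose was Epcam (0.67, named after its value was seen). Their part in the receptor values was not tested.

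Among the other FGF ligands, 7 of 21 fell and 1 rose, with a median difference of -0.19 against -0.037 over all genes. Genes above the median level had a median of 0.133, so the dimmer genes as a class lay below -0.037. Whether these ligands fell more than other dim genes was not tested. Their list mean lay between 4.16 and 4.51 on all arrays, below every array's median level, so the sizes are rough. Fgf14, an intracellular FGF family member, fell by 0.90 (SE 0.138, adjusted p = 0.00154) and Fgf23, the phosphate hormone, by 0.52 (SE 0.0989, adjusted p = 0.0045). Fgf12, another intracellular member, rose by 0.56 (SE 0.116, adjusted p = 0.00692). Fgf15, which shares beta-klotho with FGF21, fell by 0.42 (SE 0.0989, adjusted p = 0.0117), from 4.49 to 4.06. Fgf1, which binds all FGF receptors, differed by 0.28 (adjusted p = 0.355). All ligands that passed the threshold lay below the median gene and so were not among the genes tested above it.

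FGF receptors signal through the ERK kinase cascade, whose activity induces transcription factors of the ETV group and the feedback phosphatases and inhibitors of the DUSP, SPRY and SPRED families. Of 15 such genes 8 rose and 1 fell, with a median difference of 0.66 against -0.037 over all genes. Etv5, an ETS-family factor, was at 5.49, 4.99, 5.71 and 6.33 in wild type and at 8.40, 8.12, 8.45 and 8.14 in knockout replicates 1 to 4. All its knockout values exceeded all its wild type values, and the difference was 2.65 (SE 0.237, adjusted p = 9.66e-05). Dusp5, a nuclear ERK phosphatase, rose by 0.97 (SE 0.12, adjusted p = 0.000505) and Dusp4, its relative, by 0.95 (SE 0.16, adjusted p = 0.00256) from a dim 3.77. These genes respond to many receptors, and nothing here ties them to FGF21. The count of rises was 5 after quantile normalization or cyclic loess, and also 5 without wild type replicate 1 or knockout replicate 2. The 1 fall was lost without any one of 6 arrays: wild type replicates 1 and 3 and all knockout replicates. It was also lost after cyclic loess, with trend and robust variance, and with every feature tested by itself.

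**Figure D3:**
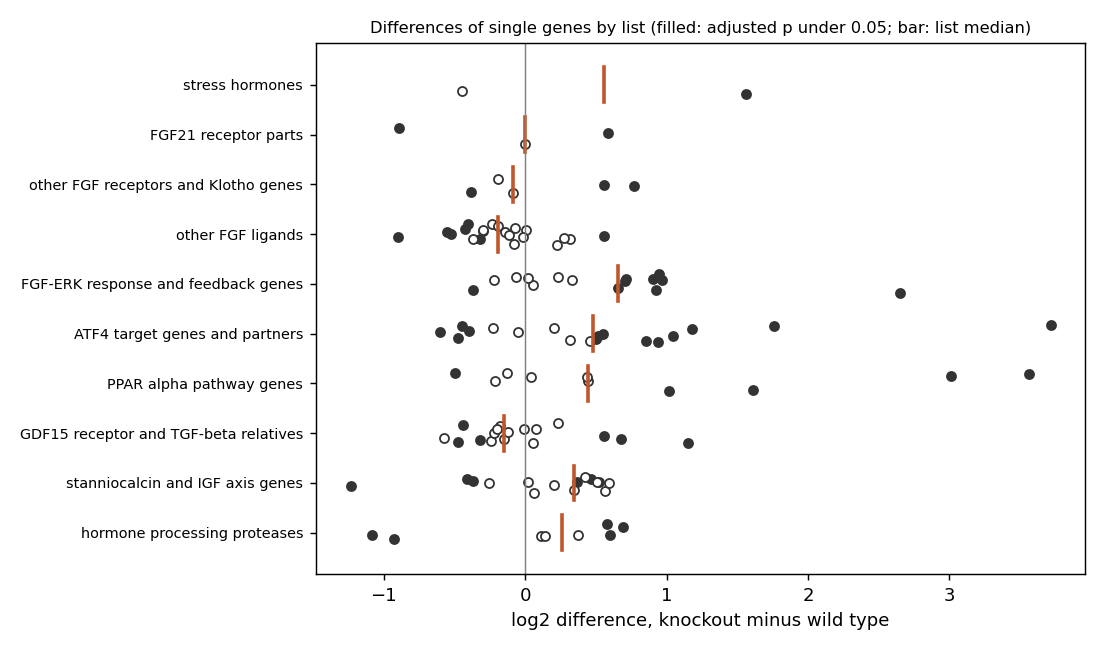
Log2 difference, knockout minus wild type (horizontal axis), of every measured gene in the lists of members, FGF signalling, regulators and partners; filled points passed adjusted p under 0.05 over all genes, open points did not, and bars mark list medians. The FGF-ERK response genes have a median of 0.66 and the other FGF ligands of -0.19, while Stc2 and Fgf21 lie on opposite sides of 0.

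ATF4, the regulator that the hormones share, rose by 0.52 at the RNA level (SE 0.102, adjusted p = 0.00547), from 7.78 ± 0.172 to 8.29 ± 0.100 (SD, n = 4 each). Of 18 measured genes on the list of Atf4 itself, its targets and its partners, 9 rose, Atf4 among them, and 4 fell. The median difference was 0.48. The pseudokinase gene Trib3 rose by 3.72 (SE 0.174, adjusted p = 4.19e-06), the ATF4 dimer partner Cebpg by 0.94 (SE 0.0856, adjusted p = 0.000105) and the stress-induced Sesn2 by 1.76 (SE 0.18, adjusted p = 0.000185). Stc2 (1.56) lay among these rises. Fgf21 (-0.45) did not pass the threshold, and its value lay within the range of the 4 genes that fell. The 4 that fell were enzymes of serine, one-carbon and asparagine metabolism, named after their values were seen: Mthfd2 (-0.60), Aldh1l2 (-0.48), Asns (-0.44) and Phgdh (-0.40). Ddit3 and Atf5 were not analysed here.

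PPAR alpha is the other known inducer of Fgf21. Of 10 measured genes of that pathway 4 rose and 1 fell, with a median difference of 0.44. Acot2, a mitochondrial acyl-CoA thioesterase, rose by 3.56 (SE 0.23, adjusted p = 1.41e-05), Pdk4, a kinase that restrains pyruvate oxidation, by 3.01 (SE 0.445, adjusted p = 0.00128) and Vnn1, a pantetheinase, by 1.61 (SE 0.144, adjusted p = 9.66e-05). The gene that fell was Ppara itself, named after its value was seen (-0.49, adjusted p = 0.046). That call was lost without any one of 7 arrays, wild type replicate 3 being the exception. It was also lost with the replicate number as a block and with every feature tested by itself.

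STC2 acts on the insulin-like growth factor (IGF) axis. Of 15 genes of this axis 3 rose and 3 fell, with a median difference of 0.34. Over all genes 16.1% rose and 12.6% fell, so these counts are not a result about the list. Igf1, the growth factor whose release PAPP-A controls, was at 9.77, 9.87, 9.72 and 9.95 in wild type and at 8.80, 8.82, 8.18 and 8.58 in knockout replicates 1 to 4. All its knockout values were lower, and the difference was -1.23 (SE 0.14, adjusted p = 0.000316). Igf2r, which clears IGF2, fell by 0.37 (SE 0.0774, adjusted p = 0.00738). Stc1, the paralog of Stc2, rose by 0.47 (SE 0.117, adjusted p = 0.016), but not after quantile normalization (0.30, adjusted p = 0.0968) or cyclic loess (0.34, adjusted p = 0.0667). Pappa, which encodes PAPP-A, rose by 0.52 (SE 0.152, adjusted p = 0.0296), a call lost under both of those scalings (adjusted p = 0.119 and 0.0655) and without any one of 6 arrays: wild type replicates 3 and 4 and all knockout replicates (0.0587 to 0.068). Its paralog Pappa2 differed by 0.43 (adjusted p = 0.243), with knockout replicate 3 the highest at 5.61. The count of rises on this list was 0 under both scalings, and 1 without wild type replicate 3 or knockout replicate 2. Beside the fall of Igf1, 0 of 10 macrophage markers and 0 of 10 stellate cell and fibroblast markers passed the threshold, and their list means overlapped between groups (macrophages 6.26 to 8.62 against 7.48 to 8.56, fibroblasts 6.90 to 8.33 against 7.64 to 8.39). Without wild type replicate 2 the macrophage marker Lyz2 (-1.27, adjusted p = 0.039) and the fibroblast marker Col1a1 (-0.84, adjusted p = 0.0493; named after its value was seen) fell, 1 of 10 on each list, and the list medians were -0.27 and -0.17 against 0.22 and 0.038 on all arrays. Igf1 was then at -1.22 (adjusted p = 0.000927). The part of these cells in the fall of Igf1 was not tested.

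**Figure D4:**
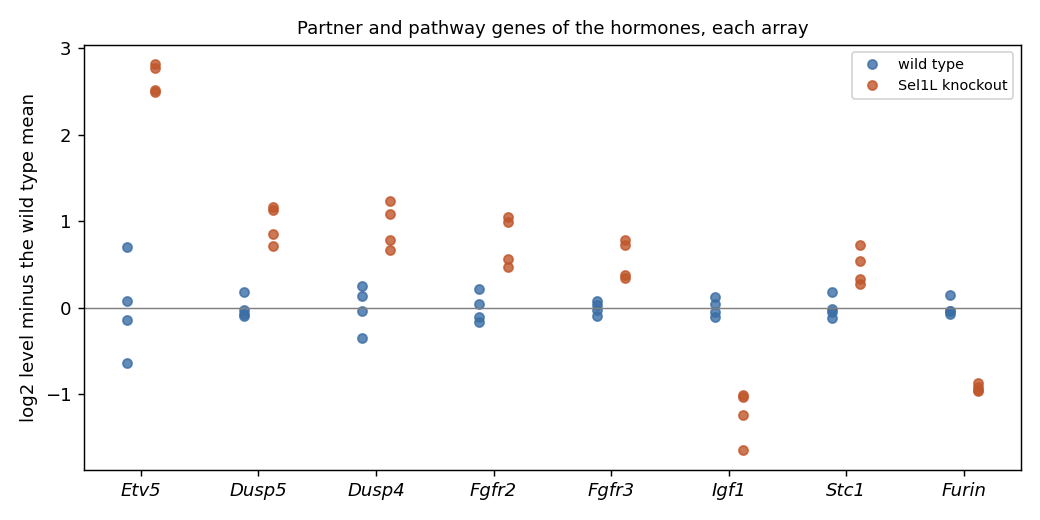
Log2 level of 8 partner and pathway genes on each array minus the wild type mean of the gene (vertical axis), wild type in blue and Sel1L knockout in orange. Etv5, Dusp5, Dusp4, Fgfr2, Fgfr3 and Stc1 lie higher and Igf1 and Furin lower in all knockout arrays.

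For GDF15, whose own gene was not analysed here, the receptor genes were dim. Gfral, its receptor, was at 2.88 in wild type and 2.66 in knockout (difference -0.22, adjusted p = 0.107), and passed only after centring on the median (adjusted p = 0.0357). Ret, the kinase that GFRAL engages, differed by -0.32 (adjusted p = 0.0226) from 4.68, a call lost after cyclic loess (adjusted p = 0.0505) and without knockout replicate 2, 3 or 4 (0.0557 to 0.0647). Of the 17 measured receptor and TGF-beta family genes 3 rose and 3 fell, with a median difference of -0.15. Set beside 16.1% higher and 12.6% lower over all genes, these counts are not a result about the list. Its list means were 4.56 to 4.76 in wild type and 4.54 to 4.69 in knockout, below the arrays' medians. The median is therefore to be read beside the lower values of dim genes given above. Inha, the inhibin alpha subunit, rose by 1.15 (SE 0.14, adjusted p = 0.000461) and Gfra1, the receptor of GDNF, by 0.56 (SE 0.12, adjusted p = 0.0079). Gdf7, a bone morphogenetic protein relative, fell by 0.47 (SE 0.129, adjusted p = 0.0223), a call lost without knockout replicate 2 (0.0616) or 3 (0.0591). The count of falls was 7 after centring on the median, 1 after cyclic loess, 0 without knockout replicate 2 or 3, and 1 without knockout replicate 4.

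Secreted precursors such as that of GDF15 are cut by proprotein convertases, and FGF21 is inactivated by the protease FAP. Of 8 measured protease genes 3 rose and 2 fell (16.1% and 12.6% over all genes), with a median difference of 0.26. With 8 genes these counts are not a result about the list. Furin, the convertase of the secretory pathway, was at 9.66, 9.70, 9.69 and 9.87 in wild type and at 8.82, 8.78, 8.85 and 8.77 in knockout replicates 1 to 4, a difference of -0.92 (SE 0.0764, adjusted p = 6.52e-05) with no overlap. Pcsk1, the convertase of endocrine granules, fell by 1.08 (SE 0.225, adjusted p = 0.00709), beside islet marker means that overlapped between groups (7.51 to 8.65 and 7.53 to 8.83). Of 9 islet markers, named after their values were seen, Ppy rose by 1.33 (adjusted p = 0.0487) and Pdx1 fell by 0.75 (adjusted p = 0.00222), with a median difference of 0.31. Without wild type replicate 2 that median was 0.49, and both Ppy (1.58, adjusted p = 0.03) and Pdx1 (-0.75, adjusted p = 0.00494) stayed called. The part of islet cells in the fall of Pcsk1 was not tested. Pcsk6 rose by 0.70 (SE 0.0986, adjusted p = 0.00105). Fap differed by 0.38 (adjusted p = 0.136).

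The genes whose pattern over the 8 arrays was most like that of Stc2 were Tbpl1, a TBP-like transcription factor (Pearson r = 0.997, higher by 2.04 in knockout), Esrp1, an epithelial splicing regulator (0.993, higher by 0.90), and Csnk1g1, a casein kinase (0.992, higher by 0.47). For Fgf21 they were Bloc1s4 (0.950), Elovl3 (0.947) and Ms4a5 (0.937), all below the arrays' median level and none past the threshold (adjusted p = 0.28, 0.155 and 0.6). These are descriptions over 8 arrays that share the genotype groups, chosen as the highest of 18820 genes.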

How the data were processed

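RNA of 8 mouse pancreas samples was hybridised to whole-transcript arrays from 100 ng each. The authors deposited 1 log2 value per feature and array, for which the submitters' processing notes name RMA (robust multi-array averaging). The log base is inferred from RMA and the range of the values. For the RMA version and chip definition, the entry is: not given in the sources used here. Of 35556 features, 21218 had 1 gene symbol in GEO's platform annotation, 1881 several and 12457 none; the last 2 kinds were left out. Where a gene had more than 1 feature, that with the highest mean over the 8 arrays stood for it (2398 others left out), which gave 18820 genes. Of the 21218 features with 1 symbol, 21185 matched RefSeq by Entrez identifier, and 0 symbols changed.

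Genotype was fitted with limma 3.58.1 (lmFit, eBayes, 6 residual degrees of freedom) in R 4.3.3, adjusted by Benjamini-Hochberg over all genes and called under 0.05. Adjusted p-values are from this fit unless another setting is named, in which case they are from limma refitted under it. Differences are knockout minus wild type, with moderated standard errors. The fit was tested on simulated data with 18820 genes and 4 against 4 arrays: of 50 genes changed by 0.5 log2 units it recovered 36%, of 50 changed by 1 it recovered 88%, and 7 of 167 calls were false. Only 50 genes of each size (0.5, 1, 2 and 3 log2 units) were changed there, a far smaller share than the 28.7% called in the data. The adjusted threshold therefore differs, and these recovery and false-call shares need not hold for the real comparison. The number of arrays limits the precision.

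The members and lists were chosen with earlier results of these data known. Named genes were the members, the 3 called genes of smallest p in each list, direct partners of members, Sel1l and the 3 genes most like Fgf21 and Stc2; marker genes are named only beside a result. Others are said to be chosen after their values were seen.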

Additional observations from a re-analysis of the deposited data

Results flagged for a closer look

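In 5 of 122 groups of 4 arrays (61 named genes in both genotypes) 1 array lay apart from the other three by Dixon's criterion; chance flags about 1 in 20. No member was among them. Gfra1 was at 7.33 in knockout replicate 2, against 7.69 to 7.73 in the other knockout arrays. Sel1l was at 11.45 in knockout replicate 4, against 11.66 to 11.70. The fibroblast gene Dcn was at 10.65 in wild type replicate 2, against 11.42 to 11.50, and at 11.94 in knockout replicate 1, against 11.44 to 11.50. Dpt, another fibroblast gene, was at 9.685 in knockout replicate 1, against 8.92 to 9.04.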

How the results depend on the processing

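Other settings were quantile normalization, centring on the median, cyclic loess, only genes above the median level, the mean of all features, every feature by itself, trend and robust variance, array weights, a block for the replicate number, and the omission of each array in turn. Under all that could be run, Stc2 (1.43 to 1.66), Klb (-1.02 to -0.82) and Fgfr4 (0.46 to 0.66) kept their call and direction, and Fgf21 (-0.61 to -0.24) stayed uncalled below 0. Fgfr4 had no value among genes above the median level, and Gdf15 none at all. Fgfr1 stayed uncalled at -0.13 to 0.060 over all settings, being -0.13 after cyclic loess and -0.11 after quantile normalization. Omitting 1 array gave -0.047 to 0.060. The number of genes called was 3721 (without knockout replicate 3) to 6226 (after centring on the median), against 5406 in the main fit. With every feature tested by itself, 7456 of the 35556 features were called, which is a count of features and not of genes. The median over all genes was -0.11 after centring, -0.048 after quantile normalization and -0.017 after cyclic loess, against -0.037. Among genes above the median level it was 0.133, and 72.2% of their calls were higher, against 56.0% in the main fit. The brighter genes thus lay higher than the dimmer ones, which bears on lists of unlike level. Deviations from the group means correlated at 0.222, 0.153, -0.273 and -0.0195 between wild type and knockout arrays of the same replicate number (1 to 4). With 4 arrays per group this cannot exclude a pairing of the samples. With the replicate number as a block 4678 genes were called, and Fgfr4 (adjusted p = 0.032), Klb (0.0032) and Stc2 (0.000342) stayed called. Of 938 further values, over 56 other named genes, 893 kept direction and side of the threshold, 26 fell below it, 10 newly passed and 9 turned direction: Kl and Ms4a5 after quantile normalization (0.020 and 0.012) and cyclic loess (0.053 and 0.069), and Kl, Ms4a5, Lyz2 and C1qb when 1 array was omitted. Over the omitted arrays Kl ranged from -0.18 to 0.093, Ms4a5 from -0.17 to 0.0054, Lyz2 from -1.27 to 0.17 and C1qb from -0.33 to 0.55, with wild type replicate 2 turning Kl, Ms4a5 and C1qb and wild type replicates 1 and 3 turning Lyz2. The counts per list under these settings were added after seeing the data. Dim features (Fgfr4, most FGF ligands, Gfral, Ret, Kl) limit how far sizes can be read.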
